A study of Rattus norvegicus with 6 samples.

Results

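The matrix metalloproteinases (MMPs) and the tissue inhibitors of metalloproteinases (TIMPs) were examined in crushed and intact sciatic nerves of Sprague Dawley rats. The 10 genes, 7 proteases (Mmp2, Mmp3, Mmp9, Mmp10, Mmp11, Mmp13 and Mmp14) and 3 inhibitors (Timp1, Timp2 and Timp3), were taken by name from the 30957 genes of the deposited table, and each name matched 1 gene. They were selected on their crushed-to-intact differences and levels in these same nerves, which were known when the list was drawn up, so their differences are given as a description. How many of them pass the fit over all genes is stated beside the share of all genes that do, and is no independent evidence. RNA-seq covered 3 intact nerves, labelled normal, and 3 crushed nerves, labelled injured. The methods describe adult male rats, a forceps crush of 1 sciatic nerve, the proximal stump of that nerve as the crushed sample, and the uninjured nerve of the other side as the intact sample, both collected 4 days postinjury (dpi). The labels give neither the time point nor which nerves came from the same rat, and the series' design text and the methods name different sides for the crush. Reads counted on genes summed to between 24844371 and 27139360 per nerve.

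MMPs are zinc endopeptidases that cut proteins of the extracellular matrix. Most are secreted as inactive proenzymes and become active when the propeptide is removed, often by plasmin, by furin-like convertases or by another MMP. TIMPs bind the active site of MMPs and block it, so that proteolysis depends on the level of both sides. In injured peripheral nerve, MMPs are known for opening the blood-nerve barrier, for remodeling the basal lamina and for cutting myelin proteins, and their transcription is classically induced through AP-1, NF-κB and ETS factors.

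The libraries were checked against markers of the cells that a sciatic nerve holds. Mbp, which encodes a major myelin protein, had at most 1 count per nerve, and Sox10 and S100b, which mark Schwann cells, at most 1 and 3. Erbb3, the neuregulin receptor of Schwann cells, was present, with 135, 130 and 131 counts in intact against 90, 94 and 89 counts in crushed nerves, and it fell by 0.59 on the log2 scale (adjusted p = 0.0222 by the quasi-likelihood test of edgeR). Erbb3 made up nearly all of the 5 Schwann lineage markers, whose sum was between 5.12 and 5.61 CPM (read counts scaled to library size and composition) in intact and between 3.37 and 3.59 CPM in crushed nerves. Its part in the differences of the members was not tested. Cdh19, another Schwann lineage marker, was at 0 in every nerve, as were the pan-leukocyte marker Ptprc and the fibroblast markers Dcn and Lum. The 3 proliferation markers were high in both groups, with a summed level between 2685 and 2898 CPM in intact nerves and between 2546 and 2683 CPM in crushed nerves. Other markers were present: the myelin genes Pmp22 and Prx had at least 821 and 590 counts in every nerve. Nefh, of axons, and Pdgfra, of fibroblasts, had at least 647 and 1114 counts in every nerve. The other axon markers were absent or nearly so, as Nefl had at most 2 counts per nerve and Nefm had 0 in every nerve. Several defining markers of the labelled tissue were thus absent or nearly so, and their part in the values that follow was not tested. Of all 7 macrophage and leukocyte markers, 2 were at 0 in every nerve. Aif1, Mrc1 and Itgam had at most 1, 2 and 8 counts per nerve, and Aif1 and Mrc1 had 0 in every crushed nerve. The list summed to between 1.93 and 3.11 CPM in intact nerves and between 2.42 and 3.15 CPM in crushed nerves, most of it from Cd68 and Csf1r. RNA of a whole sample was measured, so fewer cells of a type and less RNA per cell cannot be told apart.

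Levels of different genes were compared on the FPKM scale, which the authors corrected for gene length. Per the methods, the RNA was depleted of rRNA and then treated with the exonuclease RNase R before library preparation. The effect of this treatment on the levels, their order and the genes at 0 was not tested. In intact nerves Timp1 stood highest, at 190 ± 10.3 FPKM (SD, n = 3), followed by Timp2 at 143 ± 4.37 FPKM and Mmp13 at 143 ± 8.02 FPKM, which lay within each other's spread. Mmp14 came next at 40.0 ± 0.378 FPKM. Mmp10, at 4.79 ± 0.590 FPKM, and Mmp3, at 3.27 ± 0.312 FPKM, were low, and Mmp9 was at 0.187 ± 0.0595 FPKM. In crushed nerves the order was Timp1, Timp2, Mmp13, Mmp14, Mmp10, Mmp3 and Mmp9, with Mmp13 now at 71.9 ± 3.27 FPKM, apart from Timp2 at 123 ± 5.42 FPKM. Mmp10 and Mmp3 overlapped there, at 2.98 ± 0.563 and 2.43 ± 0.436 FPKM.

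**Figure D1:**
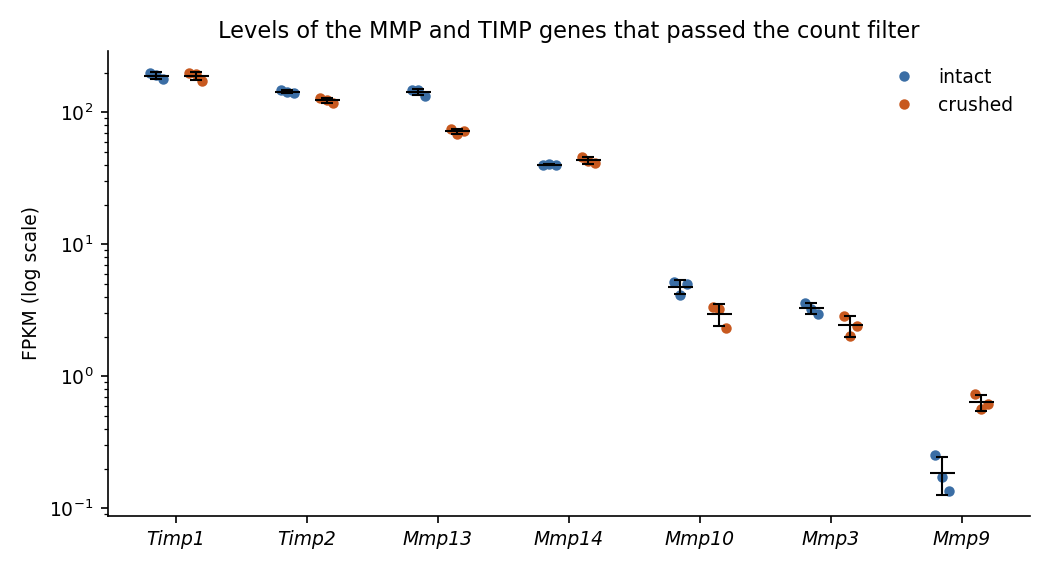
FPKM (log axis) of the 7 members that passed the count filter, with 1 point per nerve (blue, intact; orange, crushed) and black bars for mean and SD of 3 nerves. Mmp13 is at 143 FPKM in intact and 71.9 FPKM in crushed nerves, Mmp9 is higher in crushed nerves at a far lower level, and the 2 sets of Timp1 points overlap.

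Mmp13, the collagenase that cuts fibrillar collagens, had 9828, 10143 and 8628 counts in intact against 5306, 4826 and 4671 counts in crushed nerves, in the order of their replicate numbers. On the normalized scale this was 388, 384 and 348 CPM in intact nerves against 194, 178 and 186 CPM in crushed nerves. The groups lay far apart, and the lowest intact nerve was well above the highest crushed nerve. Mmp13 was 2.01-fold lower in crushed nerves, and its log2 fold change was -1.01 (standard error 0.0523, 95% interval from -1.12 to -0.89). The interval holds the limit of 1 that the study set on the absolute log2 fold change, so that its place beyond this limit is within error.

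The stromelysins Mmp10 and Mmp3 degrade noncollagen matrix proteins and can activate other proMMPs. Mmp10 had 227, 186 and 213 counts in intact against 155, 150 and 99 counts in crushed nerves. All 3 crushed nerves lay below all 3 intact nerves, with crushed nerve 3 the lowest, and the log2 fold change was -0.69 (standard error 0.151, 95% interval from -1.03 to -0.36). Mmp3 had 174, 162 and 140 counts in intact against 148, 103 and 113 counts in crushed nerves. After normalization the highest crushed nerve, at 5.42 CPM, was just under the lowest intact nerve, at 5.65 CPM, and the log2 fold change was -0.44 (standard error 0.146, 95% interval from -0.77 to -0.12). Mmp3 and Mmp10 are close paralogs, and how reads that match both were counted is not given in the sources used here, so the split of counts between them is uncertain.

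The gelatinases, Mmp9 and Mmp2, cut denatured collagen and the type IV collagen of basal laminae. Mmp9 had 25, 18 and 13 counts in intact against 77, 59 and 60 counts in crushed nerves. Every crushed nerve was well above every intact nerve, at 2.82, 2.17 and 2.40 CPM against 0.988, 0.682 and 0.525 CPM. Mmp9 was 3.35-fold higher in crushed nerves, which is a log2 difference of 1.74 (standard error 0.241, 95% interval from 1.21 to 2.28). Mmp9 is abundant in neutrophils and macrophages. The neutrophil markers S100a9 and Mpo were at 0 in all 6 nerves, and the 3 neutrophil markers together summed to between 0.0758 and 0.158 CPM in intact and between 0 and 0.0368 CPM in crushed nerves. The macrophage marker Cd68 had between 29 and 46 counts in intact and between 33 and 52 counts in crushed nerves. The whole macrophage and leukocyte list summed to between 1.93 and 3.11 CPM in intact and between 2.42 and 3.15 CPM in crushed nerves. Which cells the Mmp9 reads came from was not tested. Mmp2 had 4, 1 and 0 counts in intact against 3, 3 and 0 counts in crushed nerves, close to the floor of 3 counts that can be told from 0, which was between 0.110 and 0.121 CPM. No difference in Mmp2 was detectable at this depth.

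Mmp14, the membrane-anchored MMP that activates proMMP2 together with TIMP2, had 98.1, 99.1 and 97.0 CPM in intact against 110, 104 and 99.3 CPM in crushed nerves. The crushed nerves were all slightly higher, crushed nerve 3 by the smallest margin, and the log2 fold change of 0.10 (standard error 0.0482) had a 95% interval from -0.011 to 0.20 that included 0. Mmp11, stromelysin 3, had 0 counts in every nerve, which allows at most 3 counts or 0.121 CPM per nerve.

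Among the inhibitors, Timp1, the broadly acting and usually inducible TIMP, had 148, 144 and 133 CPM in intact against 146, 144 and 128 CPM in crushed nerves. The groups overlapped almost completely. The log2 fold change of Timp1 was -0.02 (standard error 0.0599), and its 95% interval, from -0.16 to 0.11, bounds the difference rather than showing that there was none. Timp2, which inhibits MMPs and also serves as the receptor for proMMP2 on Mmp14, had 249, 236 and 234 CPM in intact against 212, 204 and 194 CPM in crushed nerves. The groups did not overlap, though the difference was small, a log2 difference of -0.24 (standard error 0.0454, 95% interval from -0.34 to -0.14). Timp3, which binds to the matrix and also inhibits several ADAM and ADAMTS proteases, had 0 counts in every nerve.

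**Figure D2:**
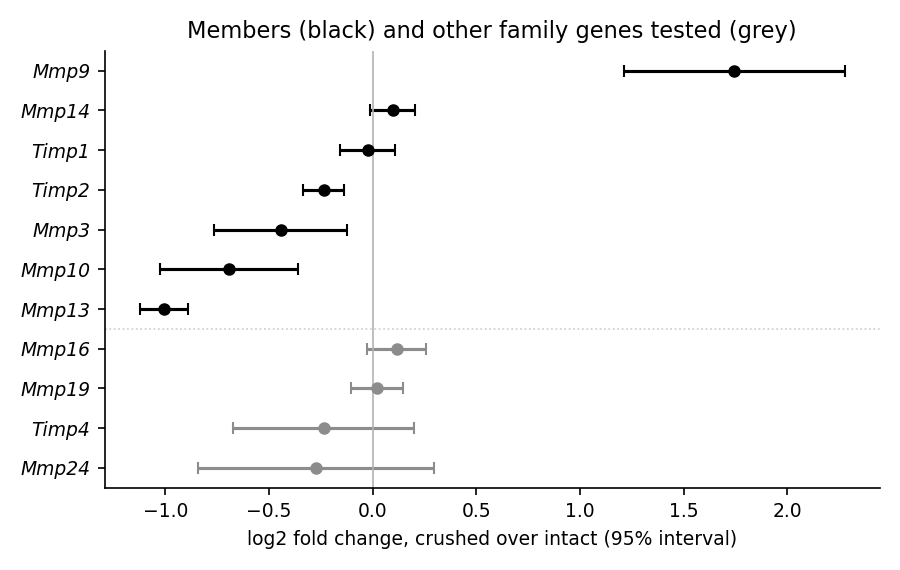
Log2 fold change of crushed over intact nerves with its 95% interval (bars) for the 7 members that passed the count filter (black) and for the 4 other MMP and TIMP genes that did (grey). The members range from -1.01 for Mmp13 to 1.74 for Mmp9, and the intervals of all 4 grey genes include 0.

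Of the 10 genes, 7 passed the filter on low counts, and 1 (Mmp9) was higher and 3 (Mmp10, Mmp13 and Timp2) were lower in crushed nerves at an adjusted p under 0.05 by edgeR's quasi-likelihood test. Across all 12393 genes tested the same rule called 1.47% higher and 1.65% lower. By the study's limits (more than 1 log2 unit either way, with p under 0.001, read here as unadjusted), 2 members were called, Mmp9 and Mmp13, against 0.282% of all genes tested. The crushed nerves all lay above the intact nerves in 2 members and all below in 4, against 10.8% and 12.2% of all genes tested. Since the members were chosen on this contrast, nothing is read from these counts. The median log2 fold change of the 7 was -0.24, and that of all genes tested -0.0017. Mmp9 and Mmp13 were called in all 12 other fits, whereas only Mmp9 and Mmp13 were left with limma on FPKM or without crushed nerve 2 or 3, where the count fell from 4 to 2. Without intact nerve 1, intact nerve 3 or crushed nerve 1, Mmp10 was no longer called and the count was 3, and without intact nerve 2 Timp2 was no longer called and the count was again 3.

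Proteases were then set against their inhibitors by summing FPKM within each nerve. The 7 proteases summed to 197, 195 and 181 FPKM in intact against 128, 118 and 118 FPKM in crushed nerves. The 3 inhibitors summed to 347, 334 and 319 FPKM in intact against 326, 319 and 292 FPKM in crushed nerves. The protease sums did not overlap between groups, whereas the inhibitor sums did. The ratio of proteases to inhibitors was 0.567, 0.583 and 0.568 in intact against 0.391, 0.369 and 0.406 in crushed nerves, and the log2 ratio was lower by a mean of 0.56 (group means -0.80 ± 0.0216 and -1.36 ± 0.0704, SD, n = 3). The sums weight each gene by its level, and when each gene counted alike, as the mean log2(FPKM + 0.1) of the proteases minus that of the inhibitors, the difference between groups was -0.0035 in place of -0.56.

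Most of the protease sum was 1 gene. Mmp13 made up between 73.6% and 75.4% of the protease FPKM in intact nerves and between 58.4% and 60.9% in crushed nerves. The other 6 proteases together had 49.0, 47.9 and 47.8 FPKM in intact against 52.6, 48.9 and 46.4 FPKM in crushed nerves, which overlapped. With Mmp13 left out, an alternative chosen after seeing the data, the log2 ratio was higher in crushed nerves by 0.12 in place of lower. Mmp14 made up the next largest share, between 20.3% and 21.9% of the protease FPKM in intact nerves and between 34.6% and 36.6% in crushed nerves. Mmp9 stayed under 1% of the protease FPKM, at 0.0973% ± 0.0276 (SD, n = 3) in intact and 0.524% ± 0.0468 (SD, n = 3) in crushed nerves.

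Ratios of single pairs varied in the same nerves. Mmp13 to Timp1 was 0.744, 0.761 and 0.747 in intact against 0.380, 0.351 and 0.414 in crushed nerves. Mmp14 to Timp2, the pair that forms the activation complex of proMMP2, was 0.269, 0.286 and 0.283 in intact against 0.355, 0.350 and 0.348 in crushed nerves. The first ratio was thus lower, and the second higher, in every crushed nerve than in every intact nerve. Mmp13 to Timp2 had a mean of 0.995 in intact against 0.585 in crushed nerves, and Mmp9 to Timp1 one of 0.000975 against 0.00337. Since the genes of these pairs were chosen on this contrast, nothing is read from the ratios.

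**Figure D3:**
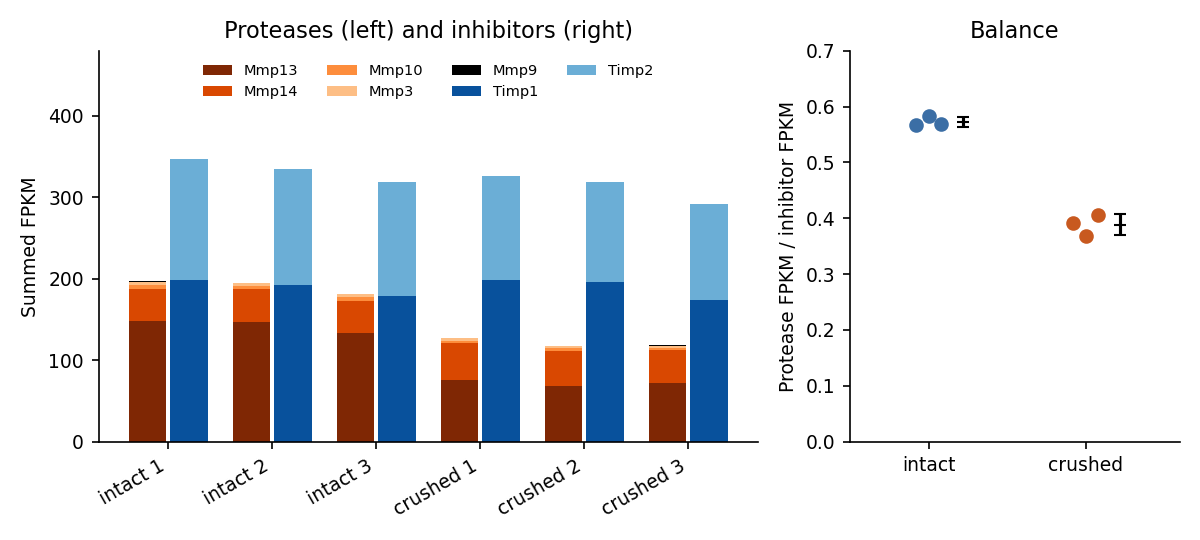
Summed FPKM of the proteases and of the inhibitors in each nerve (stacked bars, linear axis from 0; genes at or near 0 not drawn) and the ratio of the sums (points, 1 per nerve; black bars, mean and SD of 3 nerves). The ratio is 0.573 in intact and 0.389 in crushed nerves, and the Mmp13 blocks are lower in crushed nerves while the Timp1 blocks of both groups overlap in height.

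In the 3 members that are neighbors in the genome, every crushed nerve lay below every intact nerve, as in 12.2% of all genes tested. The members were chosen on this contrast, so nothing is read from this. Mmp3 did not pass (adjusted p = 0.156 by the quasi-likelihood test of edgeR), and the split of counts between Mmp3 and Mmp10 is uncertain. Mmp13, Mmp3 and Mmp10 belong to a cluster of 10 MMP genes on chromosome 8, from 5522739 to 5901049 in the coordinates of the deposited table (the submitters' processing notes name the build Rnor_6.0), with no other gene of the table starting between them. Mmp13 lies at 5522739 to 5533018, Mmp3 at 5676665 to 5698579 and Mmp10 at 5734348 to 5742243. The 7 other MMP genes of the cluster (Mmp12, Mmp1b, Mmp1, Mmp8, Mmp27, Mmp20 and Mmp7) had at most 14 counts over all 6 nerves, and 3 of them had none. Before the cluster lies Dcun1d5, with a log2 fold change of -0.09 (adjusted p = 0.387 by the quasi-likelihood test of edgeR). After it lie Tmem123, Birc2 and Birc3, with log2 fold changes of -0.02 (adjusted p = 0.958), 0.16 (adjusted p = 0.257) and 1.79 (adjusted p = 2.89e-06) from the same edgeR test. Birc3, a neighbor singled out after its value was seen, encodes the inhibitor of apoptosis cIAP2 and had 145, 139 and 123 counts in intact against 475, 490 and 500 counts in crushed nerves.

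**Figure D4:**
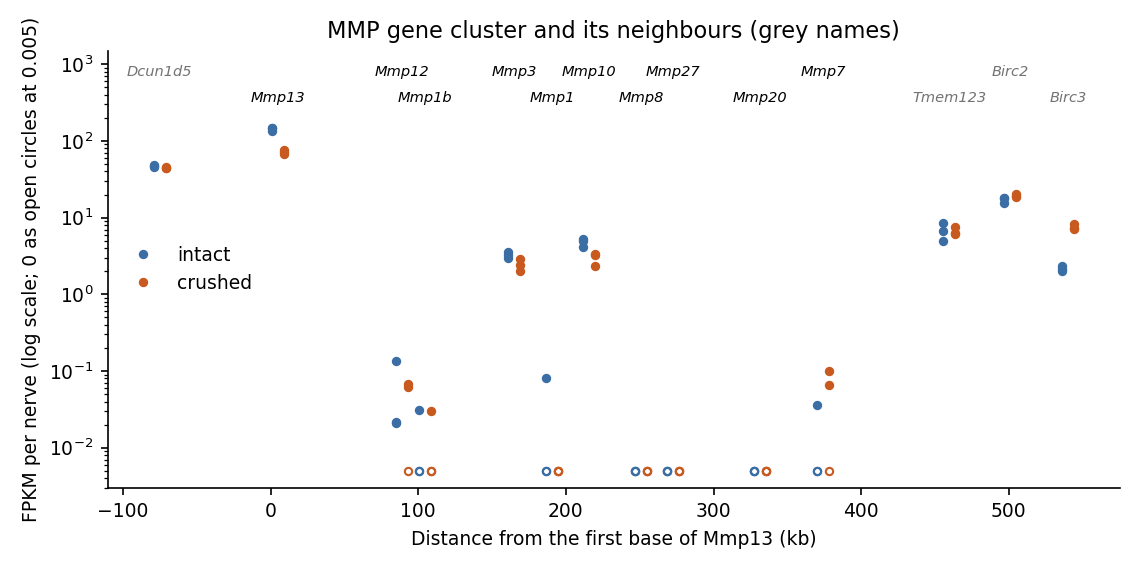
FPKM per nerve (log axis; values of 0 as open circles at 0.005) of the 10 MMP genes of the cluster (black names) and of 4 neighbors (grey names) against distance from the first base of Mmp13 in kilobases. Mmp13, Mmp3 and Mmp10 stand above the other MMP genes and are lower in crushed nerves (orange), while Birc3 at the far end is higher.

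The promoters of these 3 genes are shown because all 3 genes had lower values in crushed nerves, each from 250 bases before to 50 bases after the start of the gene (RefSeq, build GRCr8, plus strand, chr8:12782579-12782878 for Mmp13, chr8:12925031-12925330 for Mmp3 and chr8:12974457-12974756 for Mmp10). Capitals mark TGACTCA or TGAGTCA, the consensus letters of AP-1, which are each other's reverse complement and so cover both strands. Forms that differ from these were not searched for.
Mmp13: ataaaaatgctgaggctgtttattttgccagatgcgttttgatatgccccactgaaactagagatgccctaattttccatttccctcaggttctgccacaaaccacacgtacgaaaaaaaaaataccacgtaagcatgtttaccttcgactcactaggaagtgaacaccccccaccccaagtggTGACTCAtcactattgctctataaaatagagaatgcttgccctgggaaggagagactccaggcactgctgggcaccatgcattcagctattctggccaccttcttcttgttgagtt
Mmp3: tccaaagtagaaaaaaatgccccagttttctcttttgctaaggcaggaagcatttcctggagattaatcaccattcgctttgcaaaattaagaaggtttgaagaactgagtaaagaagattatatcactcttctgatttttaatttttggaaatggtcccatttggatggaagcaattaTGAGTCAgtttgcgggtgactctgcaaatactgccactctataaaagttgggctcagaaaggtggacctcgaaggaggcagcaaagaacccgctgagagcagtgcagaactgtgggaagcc
Mmp10: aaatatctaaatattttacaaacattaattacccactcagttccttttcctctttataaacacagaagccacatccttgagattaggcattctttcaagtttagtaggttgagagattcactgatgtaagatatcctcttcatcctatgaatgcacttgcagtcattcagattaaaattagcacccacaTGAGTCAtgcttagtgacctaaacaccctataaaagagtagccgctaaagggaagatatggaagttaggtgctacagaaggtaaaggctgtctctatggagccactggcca

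Each of the 3 promoters held these letters once, at -66 to -60 in Mmp13, -71 to -65 in Mmp3 and -61 to -55 in Mmp10, counted from the start of the gene. They stood in 4.63% of all 33469 promoters of that length in the table, and in 6 of the 10 promoters of the cluster, including those of Mmp12, Mmp1 and Mmp7, which had almost no reads. Of the members, 7 had a promoter in the table, and the 4 without these exact letters were Mmp11, Timp1, Timp2 and Timp3. TATAAA, read on the coding strand, stood in all 3 promoters shown, at -47 to -42 in Mmp13, and in 8.80% of all promoters. The ETS letters AGGAAG, searched on both strands, stood in Mmp13, Mmp3 and Timp1 and in 34.5% of all promoters, and an NF-κB motif, searched on both strands, in none of the 7 and in 7.51% of all promoters. A match describes the letters of this window and is neither a bound site nor a cause.

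The promoter of Timp1, the member with the highest FPKM, is also shown (RefSeq, build GRCr8, minus strand, chrX:3771073-3771372). No capitals appear because neither exact form of the AP-1 consensus letters is in this window. The similar letters tgagtaa stand in it, as they do in the Mmp3 window, so the absence of capitals does not show that AP-1 cannot bind.
Timp1: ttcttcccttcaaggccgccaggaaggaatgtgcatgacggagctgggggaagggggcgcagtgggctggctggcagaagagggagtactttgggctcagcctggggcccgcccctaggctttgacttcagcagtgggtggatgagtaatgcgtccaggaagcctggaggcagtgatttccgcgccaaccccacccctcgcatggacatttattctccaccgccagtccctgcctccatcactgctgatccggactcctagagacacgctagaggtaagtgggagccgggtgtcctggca

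The transcription factors known to act on MMP promoters were tested as a list of 22 genes, all of which passed the count filter. At an adjusted p under 0.05, 5 of them rose and 1 fell, and the median log2 fold change was -0.0011, against the shares of 1.47% and 1.65% given above for all genes tested. The 3 that rose with the smallest p were Relb and Nfkb2, of the noncanonical NF-κB pathway, and Junb, an AP-1 subunit that can oppose Jun. Relb had 117, 114 and 97 counts in intact against 410, 443 and 376 counts in crushed nerves, and its log2 fold change was 1.85 (adjusted p = 2.89e-06 by the quasi-likelihood test of edgeR). Nfkb2 rose by 0.75 on the log2 scale (standard error 0.0411) and Junb by 0.75 (standard error 0.0566), from 67.5, 67.2 and 61.2 CPM to 112, 114 and 103 CPM. Runx2, an activator of Mmp13 in bone and cartilage, fell by 0.21 (adjusted p = 0.0222 from the same edgeR test). It was no longer called with limma on FPKM or without intact nerve 2, intact nerve 3, crushed nerve 1 or crushed nerve 2, and its log2 fold change over the 6 fits with 1 nerve left out was between -0.23 and -0.18. The AP-1 subunits Jun and Fosl1, singled out after their values were seen, had log2 fold changes of -0.21 (adjusted p = 0.150) and -0.14 (adjusted p = 0.448) in the same edgeR test. Jun was lower in every crushed nerve than in every intact nerve, as were 12.2% of all genes tested. Within the list of 22, the crushed nerves all lay above the intact nerves in 8 genes and all below in 3, against 10.8% and 12.2% of all genes tested.

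Of 26 matrix substrates found in the table, 16 passed the count filter, and at an adjusted p under 0.05 in the edgeR fit 8 of these fell and 1 rose, where 1.65% of all genes tested fell and 1.47% rose. Their median log2 fold change was -0.14. Fn1, which encodes fibronectin, had 1334, 1222 and 1203 CPM in intact against 833, 849 and 824 CPM in crushed nerves, and its log2 fold change was -0.59 (standard error 0.0439, with an adjusted p = 3.52e-05 by the quasi-likelihood test of edgeR). Spp1, which encodes osteopontin, fell by 0.56 (adjusted p = 0.000122), and Tnc, which encodes tenascin C, by 0.38 (adjusted p = 0.000319) in that test. The basal lamina linker Nid2 rose by 0.22 (adjusted p = 0.0240 from the same edgeR test). It was no longer called in 5 of the 6 fits with 1 nerve left out, all but the fit without intact nerve 1. The log2 fold change of Nid2 was between 0.20 and 0.26 over the 6. Nid1, the other nidogen of the list, went the other way and fell by 0.35 (adjusted p = 0.00227 in that test). The fibrillar collagen chains Col1a1 and Col3a1, substrates of Mmp13 picked with their values in view, had 494, 537 and 502 against 363, 331 and 293 counts and 22, 23 and 21 against 10, 3 and 7 counts. Their log2 fold changes were -0.69 (adjusted p = 0.000662) and -1.76 (adjusted p = 0.0268) in the edgeR test. Col1a2, the partner chain of Col1a1, and the basal lamina chains Col4a1 and Col4a2 had 0 counts in every nerve.

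**Figure D5:**
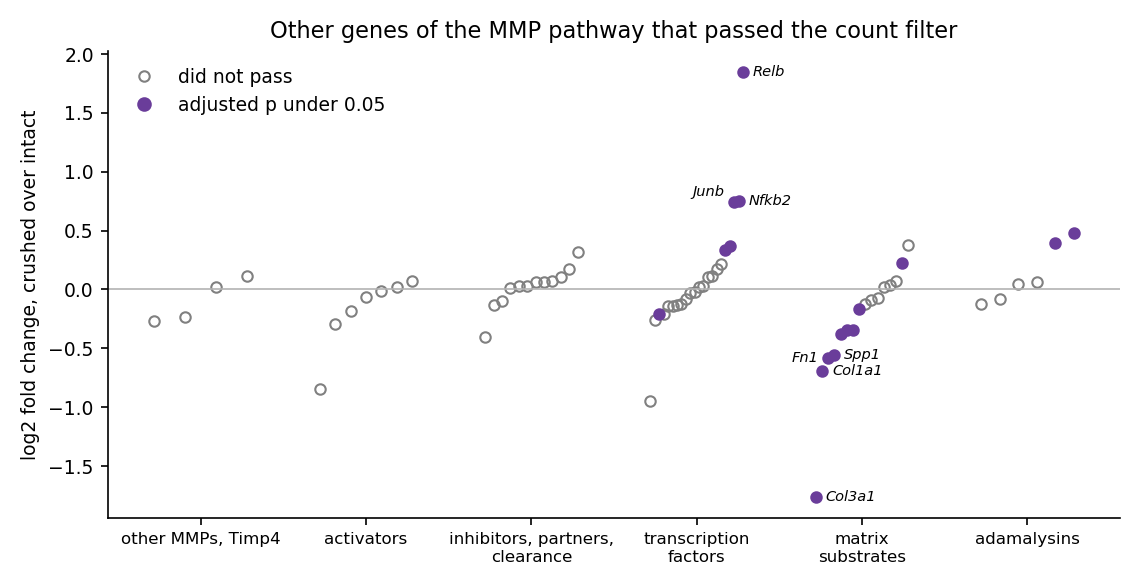
Log2 fold change of crushed over intact nerves for the genes of 6 pathway lists that passed the count filter, with 1 point per gene in order of its value within a list (filled, adjusted p under 0.05; open, did not pass). Filled points occur among transcription factors, matrix substrates and adamalysins, from -1.76 for Col3a1 to 1.85 for Relb.

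Elsewhere in the family no gene was called. Of the 15 other MMP genes and Timp4 found in the table together, 4 passed the count filter, 4 had no count in any nerve and 7 had too few. None of the 4 passed edgeR's test at an adjusted p under 0.05, 0 had an unadjusted p under 0.05, and DESeq2 and limma called 0 as well. Mmp19, a secreted MMP at 31.2 FPKM in intact and 32.1 FPKM in crushed nerves, stood above Mmp10 and Mmp3, with a log2 fold change of 0.02 (95% interval from -0.10 to 0.15). The membrane-anchored Mmp16 showed a log2 fold change of 0.12 (95% interval from -0.027 to 0.26), and Mmp24 one of -0.27 (95% interval from -0.84 to 0.30). Timp4 had 52, 49 and 54 counts in intact against 58, 38 and 41 in crushed nerves, with a log2 fold change of -0.24 (95% interval from -0.67 to 0.20).

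Genes that switch proMMPs on were tested as a list of 10, of which 7 passed the count filter. None of them passed edgeR's test at an adjusted p under 0.05, 1 had an unadjusted p under 0.05, and DESeq2 and limma called 0. That 1 gene was Pcsk5, a furin-like convertase, with 644, 642 and 694 counts in intact against 548, 610 and 523 counts in crushed nerves and a log2 fold change of -0.29 (95% interval from -0.46 to -0.12, adjusted p = 0.0744 in the edgeR fit). Furin showed a log2 fold change of 0.03 (95% interval from -0.082 to 0.13) and the plasminogen activator Plau one of -0.07 (95% interval from -0.30 to 0.17). Of 17 other inhibitors, surface partners and clearance receptors, 12 passed the count filter and none was called by edgeR, although 3 had an unadjusted p under 0.05 and DESeq2 called 1. The 3 were Itgb1, the integrin β1 chain, with a log2 fold change of 0.17 (95% interval from 0.082 to 0.27), the serpin Serpine2 with 0.11 (95% interval from 0.032 to 0.18) and the thrombospondin Thbs2 with -0.13 (95% interval from -0.21 to -0.050). Reck, a membrane inhibitor of several MMPs, showed a log2 fold change of 0.03 (95% interval from -0.12 to 0.18), and Lrp1, an endocytic receptor that clears MMP9 and MMP13, one of 0.07 (95% interval from -0.0085 to 0.15). A2m, the plasma protease trap, had 0 counts in every nerve.

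Of the 7 adamalysins, metalloproteinases that TIMP3 can also inhibit, 6 passed the count filter and 2 rose at an adjusted p under 0.05 in the edgeR fit, where 1.47% of all genes tested rose. Both are aggrecanase-type proteases. Adamts1 had 17.3, 14.6 and 17.0 CPM in intact against 22.9, 21.3 and 20.2 CPM in crushed nerves (log2 fold change 0.40, adjusted p = 0.0358 by the quasi-likelihood test of edgeR). Adamts4 showed a log2 fold change of 0.48 (adjusted p = 0.0448 from the same edgeR test). Neither was called with limma on FPKM or in 5 of the 6 fits with 1 nerve left out, namely those without intact nerve 2, intact nerve 3 or any 1 crushed nerve, where 0 of the list were called. With the replicate number as a block, 1 was called, as Adamts4 had an adjusted p = 0.0838 in that edgeR fit. The sheddases Adam10 and Adam17 had log2 fold changes of 0.05 (95% interval from -0.053 to 0.14) and 0.06 (95% interval from -0.046 to 0.17).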

How the data were processed

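RNA-seq libraries of 3 crushed and 3 intact nerves were analysed, grouped by the tissue given in the labels. The methods describe rRNA removal and RNase R treatment of the RNA. The authors deposited, in 1 table, raw read counts per Ensembl gene and FPKM values, which per the file headers are scaled to gene length and library total. The submitters' processing notes list HISAT2, StringTie 1.3.0 and the build Rnor_6.0, with no roles. The program that made the counts and the annotation release are not given in the sources used here.

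Quasi-likelihood models in edgeR 4.0.16 (R 4.3.3; alternatives in limma 3.58.1 and DESeq2 1.42.0) were fitted to the counts of all 12393 genes that passed edgeR's filter on low counts, with TMM factors and Benjamini-Hochberg adjustment. FPKM was used to compare levels between genes. The members and lists were chosen with earlier results of these data known. Named from each list were the genes with an adjusted p under 0.05, at most 3 per direction by p. Other genes of the lists, most of which did not pass, were named after their values were seen. The alternatives were DESeq2, RLE factors, no filter, limma on log2(FPKM + 0.1) or log2(FPKM + 1), the replicate block, the study's limits and each nerve left out. Floors of 3 counts cover counting error only. Where no label ties nerves to rats, p-values measure the spread between these samples, which differed beyond sampling noise (chi-square per degree of freedom 3.38 to 12.4 between replicates). The fit was also run on counts simulated from the means and spread of these nerves, with large changes in 200 well-counted genes. It called all 200, with the right sign, and 8 of 12109 unchanged genes. Small changes and changes in genes of low count were not simulated, so this test does not cover them. Promoters came from the RefSeq table of GRCr8.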

Additional observations from a re-analysis of the deposited data

How the results depend on the processing

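The number of members called, 4 (1 higher, 3 lower), was 2 (1 lower) with limma on either FPKM scale and 2 (1 lower) by the study's limits, and between 2 and 3 (1 to 2 lower, 1 higher) when nerves were left out singly. Calls among the other pathway genes numbered 17 and were 2 by the study's limits and 10 to 16 with one nerve left out. By list, the study's limits left 1 transcription factor of 6, 1 matrix substrate of 9 and 0 adamalysins of 2, against 4 to 6, 6 to 7 and 0 to 2 with one nerve left out. Adamalysin calls were 0 with limma on either FPKM scale. Partners and clearance receptors had 1 call in place of 0 with RLE factors, with no filter and with DESeq2, and 0 to 1 with one nerve left out. Over all genes, 182 higher and 205 lower became 27 and 8 by the study's limits. The number lower was 86 with limma on log2(FPKM + 0.1) and 94 on log2(FPKM + 1). With one nerve left out it was 75 to 174, and the number higher 100 to 218. The causes of these shifts were not tested.

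Blocking on the replicate number, 3 of the 4 members were called, without Mmp10, and 1 of the 2 adamalysins. In nerves that share a number, the deviations from the group means correlated across genes at between -0.0148 and 0.0756. This cannot settle whether those nerves came from the same rat, because counting noise in low genes lowers such a correlation.

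The difference in the log2 ratio of protease to inhibitor FPKM, -0.56, was between -0.59 and -0.52 with one nerve left out. It was -0.0035 when each gene counted alike as mean log2(FPKM + 0.1). In 2 alternatives chosen after seeing the data it was -0.41 over all MMPs and TIMPs and reversed to 0.12 with Mmp13 left out, because Mmp13 holds most of the protease sum. Of the single genes named, Timp1 took a positive sign in the fits lacking intact nerve 1 (0.0173) and crushed nerve 3 (0.0337), over a range from -0.066 to 0.034, and Mmp19 a negative sign in the fit lacking intact nerve 3 (-0.0152), over a range from -0.015 to 0.078. Mmp2 and most other MMPs had too few counts for any but a large change to be seen. Mmp11 and Timp3 had 0 counts in every nerve, and whether depth or something else accounts for this was not tested.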
